A study of Mus musculus with 6 samples.

Results

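Axon guidance genes encode secreted or membrane-bound cues and the receptors that read them. Here they are the netrins with their receptors (Dcc, neogenin and the Unc5 proteins), the Slits with the Robo receptors, the semaphorins with the plexins and neuropilins, and the ephrins with the Eph receptor tyrosine kinases. They were picked from the gene count table by symbol alone, which gave 70 genes of 19467, with 35 ligands and 35 receptors. These pairs steer growing axons by attraction or repulsion, and outside the nervous system they act in cell adhesion, cell sorting and vessel growth. Dcc and the Unc5 proteins are also known as dependence receptors, which can promote cell death when no ligand is bound.

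The RNA came from E14Tg2A cells, an established mouse embryonic stem cell line kept in serum with leukaemia inhibitory factor (LIF). For each sample, an antisense oligonucleotide (ASO) labelled with the dye Lissamine was delivered by nucleofection, an electroporation aimed at the nucleus, at 5 nmol. Of each sample, 300000 Lissamine-positive cells were sorted after 48 h. The LINE1 ASO arm (3 libraries) received an ASO against the LINE1 retrotransposon, and the RC ASO arm (3 libraries) received one named RC, which the labels call the control without spelling the name out. Whether replicates came from separate cultures is not labelled, so the p-values speak only to the spread between these libraries, which may be technical. A single line was used, and its transfected cells only.

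Gene-assigned reads numbered 26633433 to 31704616 per library in the LINE1 ASO arm and 19954026 to 29092272 in the RC ASO arm. Reads of 6 L1Md repeats, which are mouse LINE1 families, came to 7223, 3277 and 6588 CPM (counts scaled to a common library size) in LINE1 ASO replicates 1, 2 and 3, against 7894, 3933 and 7784 CPM in RC ASO replicates 1, 2 and 3. The arms overlapped (log2 ratio -0.21, two-sided exact permutation p = 0.5, where 3 libraries against 3 cannot go below 0.1), so the repeat reads do not separate the labels. Each LINE1 ASO library lay below the RC ASO library of its number (exact permutation p = 0.25 over pairs, and 3 pairs cannot give less). All 10 genes of a stem cell marker list were read, at a summed 4428 to 5090 CPM in the LINE1 ASO arm and 5763 to 6041 CPM in the RC ASO arm. All 10 had a log2 fold change below 0, with a median of -0.27. By edgeR's quasi-likelihood test 1, Pou5f1, was called lower, beside 1.17% of all genes. DESeq2 called 3 lower, beside 3.56% of all genes, and the fit with the replicate block 8, beside 16.1%. Apart from Nanog, the markers had over 64 CPM in the RC ASO arm. Of all genes at that level 3.63% were called lower by edgeR, and their median log2 fold change was -0.08. At an unadjusted p under 0.05, 5 markers were lower. How many of all genes had an unadjusted p under 0.05 is not given, so unadjusted counts have no share beside them. Of 12 neural markers 11 were in the table. Stmn2, Tubb3, Nes and Elavl3 were well read, with means of 217, 77.3, 47.2 and 15.8 CPM in the LINE1 ASO arm and 269, 67.3, 48.5 and 16.02 CPM in the RC ASO arm, while Dcx, Neurog2 and Olig2 averaged at most 0.255 CPM in either arm. The whole list, led by Stmn2, summed to 351 to 377 CPM (LINE1 ASO arm) and 369 to 435 CPM (RC ASO arm). Of the 7 compared 0 were called by edgeR and 1 had an unadjusted p under 0.05. DESeq2 called 1 higher and 1 lower, beside 6.37% and 3.56% of all genes. Genes of the 2-cell embryo, which mark a rare state of stem cell cultures, were summed over the 8 of 10 listed markers that were counted. The list was chosen with earlier results of these data known. The 8 markers stood at 244, 96.9 and 120.5 CPM in LINE1 ASO replicates 1, 2 and 3, against 10.8, 10.1 and 8.03 CPM in RC ASO replicates 1, 2 and 3. All 8 were called higher, beside 4.93% of all genes. Among all genes under 1 CPM and at 1 to 4 CPM in the RC ASO arm, 15.8% and 7.92% were called higher. Of markers of primitive endoderm, trophectoderm, mesoderm, fibroblasts and endothelium, 6, 7, 6, 6 and 7 were compared. The number called higher was 1 in primitive endoderm (Pdgfra), 1 in endothelium (Tek) and 0 in the others by edgeR's quasi-likelihood test. For trophectoderm, mesoderm and fibroblasts it was 2, 1 and 2 at an unadjusted p under 0.05, and 1, 0 and 0 by DESeq2. Of all genes 4.93% were called higher by edgeR and 6.37% by DESeq2. For the libraries numbered 2, deviations from their arm means correlated at 0.659 with each other. With every library of another number in the other arm the correlation was -0.475 to -0.362. Deviations sum to 0 within an arm, so the negative values are linked to the positive one.

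Guidance genes were widely transcribed in these cells, with receptors ahead of ligands. Over all 70 genes the summed level was 1625 ± 24.7 CPM in the LINE1 ASO arm and 1514 ± 64.1 CPM in the RC ASO arm (SD, n = 3 each). Receptors made 1167 ± 14.4 CPM in the LINE1 ASO arm and 1060.3 ± 33.9 CPM in the RC ASO arm (SD, n = 3 each), and these ranges did not overlap. Ligands stood at 458 ± 13.2 CPM and 453 ± 31.0 CPM in the LINE1 ASO and RC ASO arms (SD, n = 3 each), and their ranges overlapped. The ligand sum includes Ntn1, the ligand with the most CPM in the RC ASO arm. Its mean was 49.4 CPM in the LINE1 ASO arm and 85.4 CPM in the RC ASO arm. Gene by gene, 69.7% of 33 ligands and 73.3% of 30 receptors compared had a log2 fold change above 0. The medians were 0.18 and 0.25. By edgeR's quasi-likelihood test 1 ligand and 5 receptors were called higher (3.03% and 16.7%), beside 4.93% of all genes. Called lower were 1 ligand and 0 receptors (3.03% and 0%), beside 1.17% of all genes. With the replicate number as a block 21.2% of ligands and 43.3% of receptors were higher, beside 17.6% of all genes. These counts include Dcc and Ntn1, known beforehand to differ, and a difference between the sides was not tested. In a bulk library, a change in the number of cells that transcribe a gene cannot be told apart from a change in RNA per cell.

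Of the 70 genes, 63 had enough reads to be compared. The fit over all genes (edgeR's quasi-likelihood test, Benjamini-Hochberg adjusted p under 0.05) gave 6 higher in the LINE1 ASO arm, which were Dcc, Neo1, Robo1, Robo3, Slit1 and Plxna1, and 1 lower, Ntn1. These are 9.52% and 1.59% of the 63, beside 4.93% and 1.17% of all 14725 genes tested. The family was taken up after Dcc and Ntn1 had been seen to differ in this same comparison. The counts therefore describe the genes and are no test of the family, and Dcc and Ntn1 are given without a p-value. A log2 fold change above 0 was found for 45 of the 63, with a median of 0.18, beside 51.0% of all genes and a median of 0.01. The filter on low counts was met by 57 in both arms and by 5 (Dcc, Ephb1, Ntn4, Sema3g and Sema6d) in the LINE1 ASO arm alone, so these 5 could enter only by being higher there. Among the 57 the calls were 5 higher and 1 lower with a median of 0.16, beside 3.85% higher, 1.26% lower and a median of -0.01 over all 13676 genes that met the filter in both arms.

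**Figure D1:**
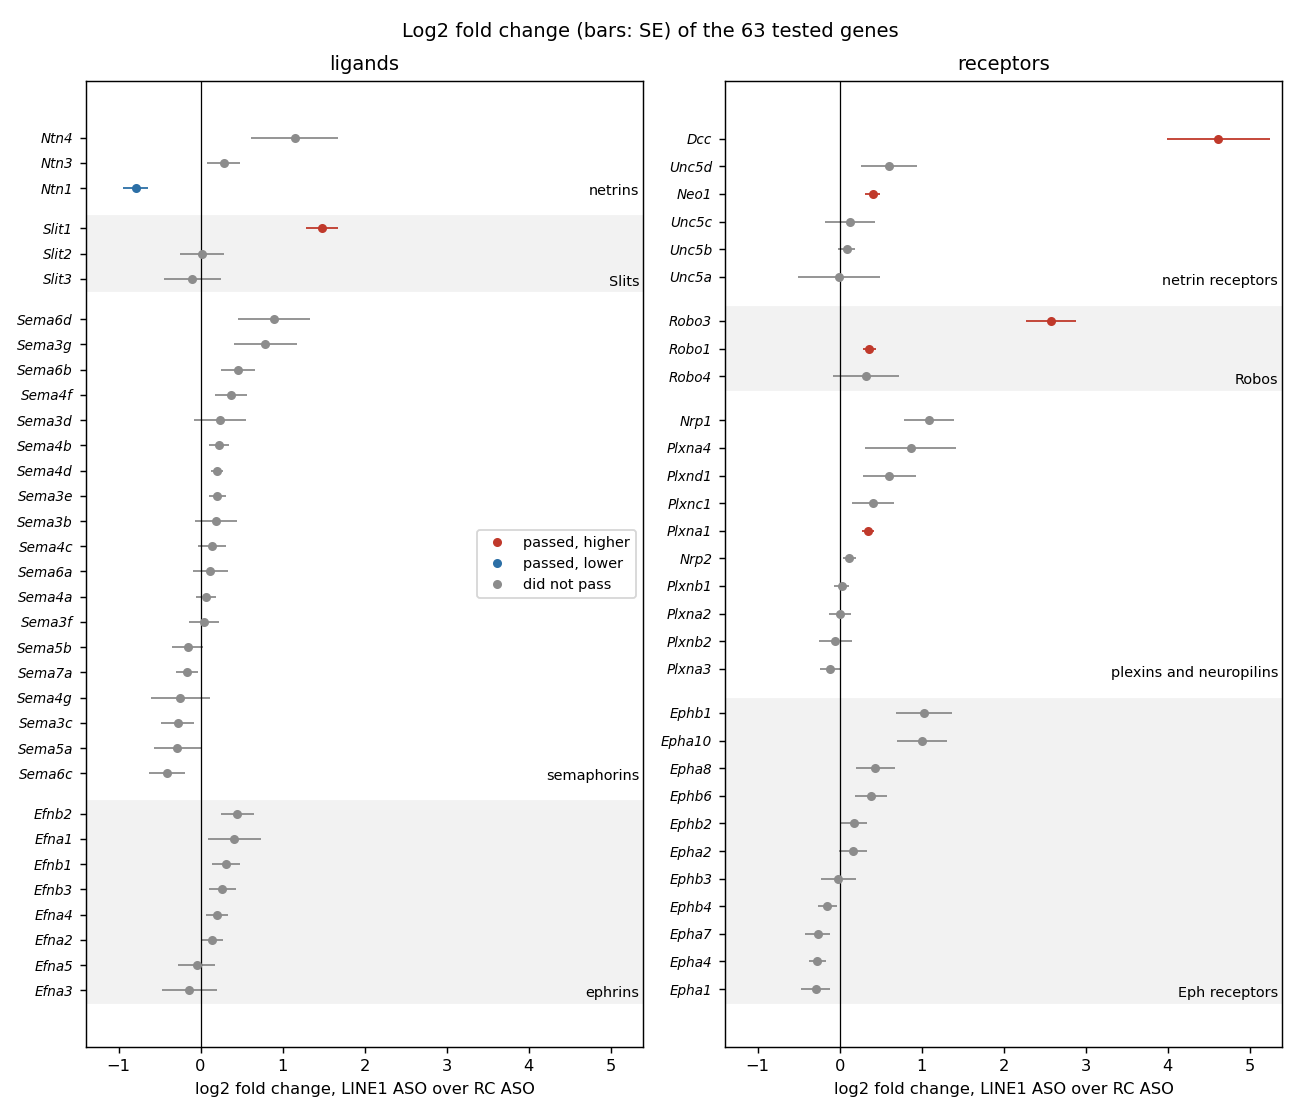
Log2 fold change of each of the 63 guidance genes compared, LINE1 ASO over RC ASO, by ligand class (left) and receptor class (right). Points are fitted values and bars their SE, red marks genes that passed higher, blue lower and grey not. Dcc stands farthest right at 4.62 and Ntn1 farthest left at -0.79.

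The replicate numbers were taken to pair the libraries of both arms, from correlations between libraries, as no label states a pairing. With the number as a block, 20 of the 63 were higher and 4 lower (31.7% and 6.35%), beside 17.6% and 16.1% of all genes, and the 24 included the 7 named above. Without both libraries numbered 2, 15 were higher and 1 lower, beside 12.2% and 8.3% of all genes. A change of at least 2-fold was called for 3 of the 6, Dcc, Robo3 and Slit1, and for 0 of those lower, beside 3.36% and 0.00679% of all genes. All LINE1 ASO libraries lay above all RC ASO libraries for 16 of the 63 and below them for 4 (25.4% and 6.35%), beside 16.8% and 11.9% of all genes. DESeq2 called 8 higher, adding Epha10 and Nrp1, and 1 lower, beside 6.37% and 3.56% of all genes. Many of the calls were lost with 1 library left out, and such fits have fewer samples. The cause of the losses was not tested. Dcc, Robo3 and Slit1 were the 3 called higher without LINE1 ASO replicate 1, 2 or 3 (all genes 1.93%, 5.06% and 1.81%) and without RC ASO replicate 1 (all genes 1.12%). Without RC ASO replicate 2 there were 9 (all genes 6.92%), and without RC ASO replicate 3 Robo3 alone (all genes 1.06%). Ntn1 was called lower without replicate 2 of either arm (all genes 2.48% without the LINE1 ASO library and 3.18% without the RC ASO library). It was no longer called without LINE1 ASO replicate 1 or 3, or RC ASO replicate 1 or 3, where 0.0878%, 0.0468%, 0.0133% and 0.0267% of all genes were lower.

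Among the 63 genes compared, the netrin system held the largest rise, of Dcc, and the only call lower, Ntn1. Netrin 1 is a secreted, laminin-related cue. Ntn1 held nearly all netrin reads, at 43.0, 62.3 and 43.0 CPM in LINE1 ASO replicates 1, 2 and 3, against 86.6, 90.8 and 78.9 CPM in RC ASO replicates 1, 2 and 3. The arms stood apart, and LINE1 ASO replicate 2 lay nearest to the RC ASO libraries. The log2 fold change was -0.79 ± 0.15 (SE), a ratio of 0.579. Between same-numbered libraries the log2 ratios were -1.01, -0.54 and -0.87. The other netrins were far scarcer: in CPM per kilobase of exon (RPKM), Ntn1 stood at 8.12 ± 1.82 in the LINE1 ASO arm and 14.0 ± 0.993 in the RC ASO arm (SD, n = 3 each), and Ntn3 at 0.323 ± 0.0283 in the LINE1 ASO arm and 0.267 ± 0.0288 in the RC ASO arm (SD, n = 3 each). Ntn4 had 14, 17 and 13 reads in the LINE1 ASO libraries, against 3, 11 and 2 in the RC ASO libraries, and did not pass (edgeR adjusted p = 0.255, Benjamini-Hochberg). Ntn5 had at most 11 reads in any library and was not compared.

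Dcc, the receptor through which netrin 1 attracts axons, was nearly silent in the RC ASO arm. It had 211, 59 and 80 reads (6.50, 1.90 and 2.94 CPM) in LINE1 ASO replicates 1, 2 and 3, against 4, 4 and 3 reads (0.208, 0.150 and 0.107 CPM) in RC ASO replicates 1, 2 and 3. No LINE1 ASO library came near the RC ASO range, and replicate 1 stood well above the other two. The log2 fold change was 4.62 ± 0.62 (SE), or 24.6-fold, and 3.95 to 4.91 with 1 library left out in turn. The summed 2-cell markers, given above, had the same order over the LINE1 ASO libraries, as did other guidance genes such as Neo1 and Epha2. The part of the 2-cell markers in the Dcc values was not tested.

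Neo1 encodes neogenin, a relative of Dcc that binds netrins and repulsive guidance molecules. It rose by a small amount, to 85.5, 77.4 and 81.9 CPM in LINE1 ASO replicates 1, 2 and 3, against 55.1, 67.5 and 62.7 CPM in RC ASO replicates 1, 2 and 3. The arms did not overlap. Its log2 fold change was 0.40 ± 0.09 (SE, edgeR adjusted p = 0.0471, Benjamini-Hochberg). The call did not hold with RLE factors, without the count filter, or without any 1 library other than RC ASO replicate 2 (edgeR adjusted p = 0.0517 to 0.179, Benjamini-Hochberg). Unc5b, a receptor that mediates repulsion by netrins, was the most abundant netrin receptor per length in the RC ASO arm, at 65.8, 74.4 and 64.9 CPM in LINE1 ASO replicates 1, 2 and 3, against 64.4, 71.8 and 57.0 CPM in RC ASO replicates 1, 2 and 3. The arms overlapped. Its log2 fold change was 0.09 ± 0.10 (SE). Unc5a, Unc5c and Unc5d had log2 fold changes of -0.01, 0.13 and 0.60 and did not pass. Even at its higher level, Dcc was a small part of the receptor pool: it made 2.61%, 0.737% and 1.21% of summed netrin receptor RPKM in LINE1 ASO replicates 1, 2 and 3, against 0.104%, 0.0631% and 0.0550% in RC ASO replicates 1, 2 and 3. Neo1 made 48.1%, 42.0% and 47.4% in the LINE1 ASO libraries, against 38.6%, 39.6% and 45.0% in the RC ASO libraries.

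**Figure D2:**
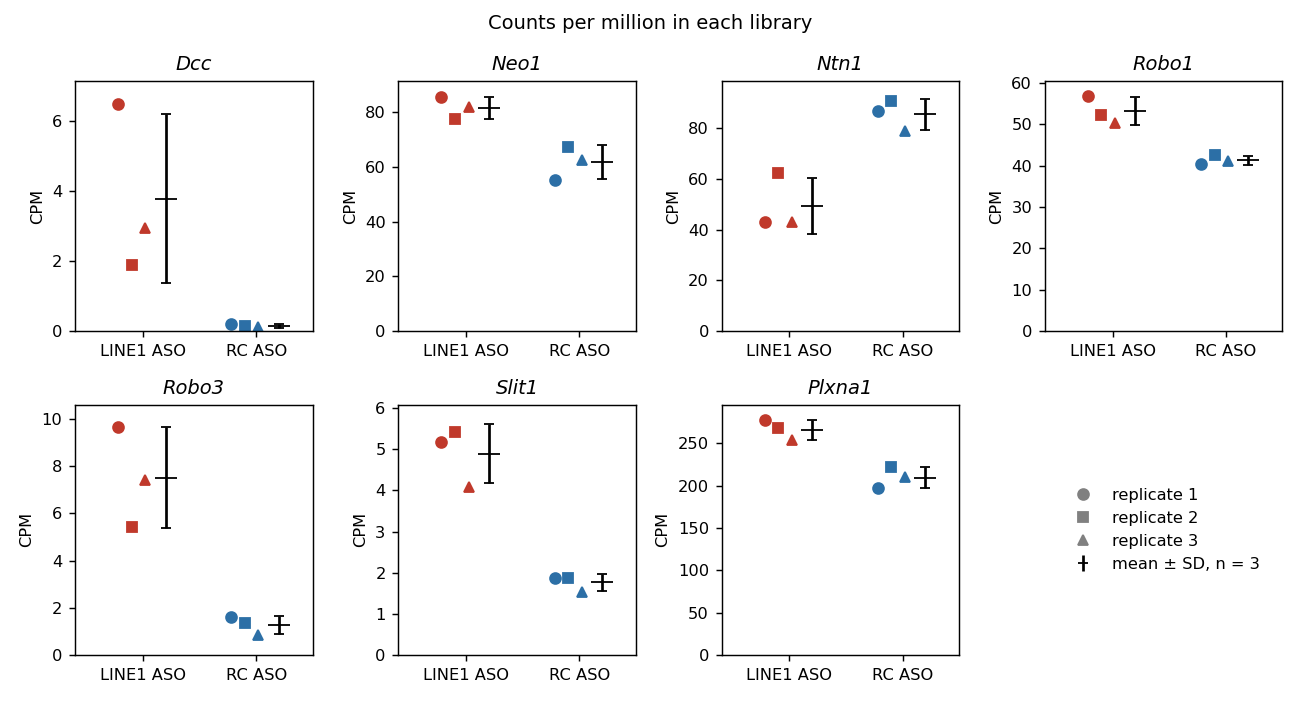
CPM of the 7 guidance genes that passed, in each library, with the LINE1 ASO arm left of the RC ASO arm and each axis starting at 0. Symbols mark replicates and black bars the mean ± SD (n = 3). The arms do not overlap for any of the 7, and Ntn1 alone is lower in the LINE1 ASO arm.

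Both sides of the Slit and Robo system held a gene that rose. Slits are secreted repellents, and Slit1 stood at 5.18, 5.41 and 4.08 CPM in LINE1 ASO replicates 1, 2 and 3, against 1.88, 1.88 and 1.54 CPM in RC ASO replicates 1, 2 and 3. All LINE1 ASO libraries lay above all RC ASO libraries. The log2 fold change was 1.48 ± 0.20 (SE, edgeR adjusted p = 0.00755, Benjamini-Hochberg), 2.78-fold, and without RC ASO replicate 3 the call was lost (edgeR adjusted p = 0.0558, Benjamini-Hochberg). Slit2 and Slit3 had log2 fold changes of 0.02 ± 0.27 and -0.10 ± 0.35 (SE), and that of Slit3 turned positive in 3 fits that left out 1 library. Slit3 was the most abundant Slit per length, at 1.76 ± 0.821 RPKM in the LINE1 ASO arm and 1.88 ± 0.626 RPKM in the RC ASO arm (SD, n = 3 each). It had 6.10, 14.1 and 7.35 CPM in LINE1 ASO replicates 1, 2 and 3, against 8.13, 13.6 and 7.75 CPM in RC ASO replicates 1, 2 and 3, with replicate 2 high in both arms and the arms overlapping. Slit1 made 35.0%, 21.4% and 27.0% of summed Slit RPKM in LINE1 ASO replicates 1, 2 and 3, against 13.4%, 8.78% and 12.2% in RC ASO replicates 1, 2 and 3.

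After Dcc, the largest rise among the 63 was that of Robo3. It is the Robo receptor that lets commissural axons cross the midline, and in mammals it binds Slits weakly if at all. It had 314, 168 and 202 reads (9.68, 5.41 and 7.42 CPM) in LINE1 ASO replicates 1, 2 and 3, against 31, 36 and 24 reads (1.61, 1.35 and 0.857 CPM) in RC ASO replicates 1, 2 and 3. The LINE1 ASO libraries all lay above the RC ASO libraries, and their order was that of Dcc and of the 2-cell markers, whose part was not tested. Neo1, Nrp1, Efnb2, Epha2 and Sema4b had the same order of LINE1 ASO libraries, so it is not particular to Dcc and Robo3. The log2 fold change was 2.58 ± 0.31 (SE, edgeR adjusted p = 0.00556, Benjamini-Hochberg), or 5.97-fold. It passed in every alternative run, including each fit without 1 library (edgeR adjusted p up to 0.0334, Benjamini-Hochberg).

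Robo1, a Slit receptor and the most abundant Robo per length here, rose by a small amount. It stood at 56.8, 52.1 and 50.3 CPM in LINE1 ASO replicates 1, 2 and 3, against 40.3, 42.4 and 41.1 CPM in RC ASO replicates 1, 2 and 3, with no overlap. On the log2 scale the difference was 0.36 ± 0.08 (SE, edgeR adjusted p = 0.0402, Benjamini-Hochberg). The call was lost without the count filter and without any 1 library other than RC ASO replicate 2 (edgeR adjusted p = 0.0554 to 0.177, Benjamini-Hochberg). Robo4, known from endothelial cells, had 10.6, 5.03 and 11.6 CPM in LINE1 ASO replicates 1, 2 and 3, against 8.86, 3.72 and 9.32 CPM in RC ASO replicates 1, 2 and 3. Replicate 2 was low in both arms, the arms overlapped, and the log2 fold change was 0.32 ± 0.41 (SE). With the replicate block it passed (edgeR adjusted p = 0.0321, Benjamini-Hochberg). Endothelial markers summed to 127, 111 and 127 CPM in LINE1 ASO replicates 1, 2 and 3, against 84.0, 81.5 and 89.1 CPM in RC ASO replicates 1, 2 and 3, and their part in the Robo4 values was not tested. Tek and Pecam1 led that sum, with means of 38.7 and 75.3 CPM in the LINE1 ASO arm and 11.2 and 67.2 CPM in the RC ASO arm. Of the 7 markers 6 had a log2 fold change above 0, but only Tek was called. Flt1 averaged 3.63 CPM in both arms, and Cdh5, Kdr, Tie1 and Erg at most 1.87 CPM in either. Robo2 had at most 9 reads in any library and was not compared. Robo3 made 16.4%, 11.8% and 13.9% of summed Robo RPKM in LINE1 ASO replicates 1, 2 and 3, against 4.26%, 3.99% and 2.24% in RC ASO replicates 1, 2 and 3.

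**Figure D3:**
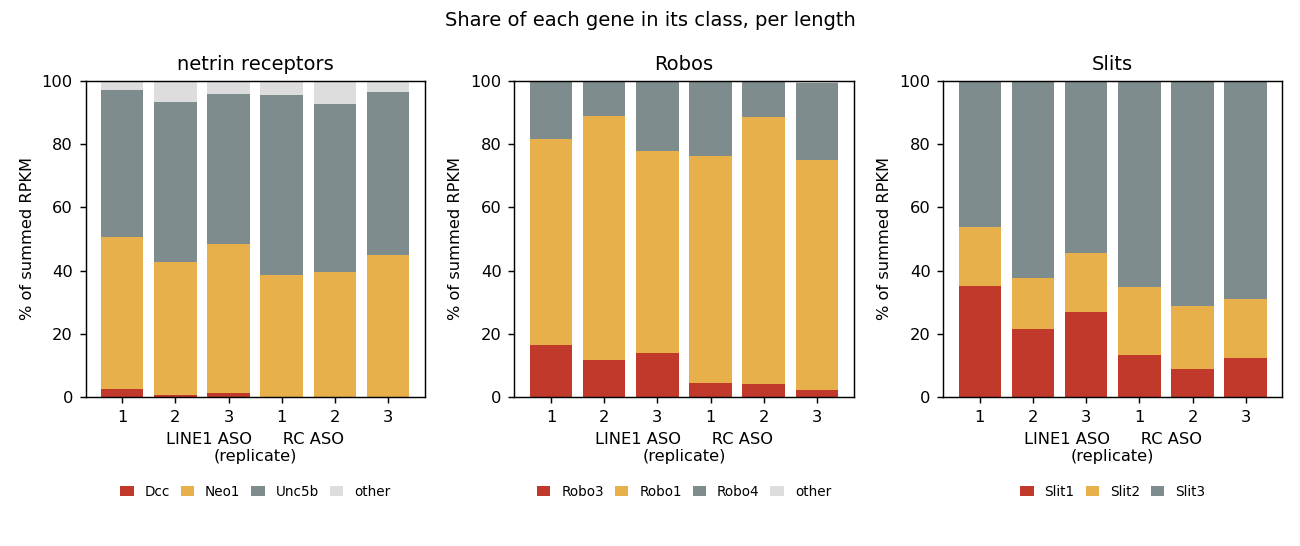
Share of each gene in the summed RPKM of the netrin receptors, the Robos and the Slits, one bar per library with the 3 LINE1 ASO libraries left of the 3 RC ASO libraries. Robo3 (red, middle) takes 11.8% to 16.4% in the LINE1 ASO libraries and 2.24% to 4.26% in the RC ASO libraries, and Slit1 (red, right) 21.4% to 35.0% and 8.78% to 13.4%.

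Robo3 and Robo4 are neighbours that point toward each other, with 553 bases between their ends in the GENCODE M21 annotation of GRCm38. The promoters of Robo3, Robo1 and Robo4 are shown because the first 2 genes rose and the third, the close neighbour, did not pass. They are 300-base windows of RefSeq, from 250 bases before to 50 after the start, on GRCm38.p6, whereas the submitters' processing notes name mm9 for the counts. Robo3 lies at chr9:37433126-37433425 on the minus strand, Robo1 at chr16:72662899-72663198 on the plus strand and Robo4 at chr9:37401722-37402021 on the plus strand, each written 5′ to 3′. Capitals mark the GC box GGGCGG on either strand, and a site that overlaps another counts separately.
Robo3: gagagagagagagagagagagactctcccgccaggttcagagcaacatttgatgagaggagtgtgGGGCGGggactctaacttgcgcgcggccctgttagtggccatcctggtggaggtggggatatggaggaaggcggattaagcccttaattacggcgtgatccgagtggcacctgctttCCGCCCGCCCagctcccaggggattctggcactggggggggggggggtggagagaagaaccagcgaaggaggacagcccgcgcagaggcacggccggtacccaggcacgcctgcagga
Robo1: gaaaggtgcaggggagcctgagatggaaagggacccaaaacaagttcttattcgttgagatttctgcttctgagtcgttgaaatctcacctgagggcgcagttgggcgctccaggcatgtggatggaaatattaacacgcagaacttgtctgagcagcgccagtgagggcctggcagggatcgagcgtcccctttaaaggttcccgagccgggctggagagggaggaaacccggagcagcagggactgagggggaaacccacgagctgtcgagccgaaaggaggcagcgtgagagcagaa
Robo4: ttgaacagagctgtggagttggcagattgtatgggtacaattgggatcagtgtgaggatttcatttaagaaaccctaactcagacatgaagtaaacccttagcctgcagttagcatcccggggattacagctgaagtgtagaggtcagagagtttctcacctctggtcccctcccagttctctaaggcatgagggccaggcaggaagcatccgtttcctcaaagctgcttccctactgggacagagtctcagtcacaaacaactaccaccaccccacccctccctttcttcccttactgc
The Robo3 window held 3 GC boxes, the other two 0, and 35.7% of all 32851 promoters of this length held at least 1. CpG dinucleotides numbered 17 in Robo3, 15 in Robo1 and 2 in Robo4, beside a median of 7 over all promoters. None of the 3 held the TATA box letters TATAAA (on either strand), found in 13.6% of promoters. A match describes the sequence and names no factor. Over the 60 guidance genes with a window, the median CpG number was 22.5 and 73.3% held a GC box. Slit1, Ntn1, Dcc and Plxna1 had no window in the table.

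Of the 10 plexins and neuropilins compared, 8 had a log2 fold change above 0, and Plxna1 was the one called higher by edgeR's quasi-likelihood test. Plexin A1 transmits signals of class 3 semaphorins together with neuropilins, and Plxna1 had the highest mean per length of this class (its RC ASO range overlapped that of Plxnb2), at 277, 268 and 254 CPM in LINE1 ASO replicates 1, 2 and 3, against 197, 222 and 209.9 CPM in RC ASO replicates 1, 2 and 3. The arms did not overlap. The log2 difference was 0.34 ± 0.07 (SE, edgeR adjusted p = 0.0355, Benjamini-Hochberg), and the call was lost without any 1 library other than RC ASO replicate 2 (edgeR adjusted p = 0.0714 to 0.161, Benjamini-Hochberg). An antisense gene shares 10.7% of the Plxna1 exon bases in GENCODE M21, and the strand setting of the counting is not given in the sources used here. Nrp1, the co-receptor for semaphorin 3A and vascular endothelial growth factor, stood at 3.42, 1.93 and 2.17 CPM in LINE1 ASO replicates 1, 2 and 3, against 1.41, 0.864 and 1.29 CPM in RC ASO replicates 1, 2 and 3. Those ranges did not overlap, and with a log2 fold change of 1.09 ± 0.30 (SE) it missed the threshold (edgeR adjusted p = 0.0809, Benjamini-Hochberg). It passed with the replicate block (edgeR adjusted p = 0.00234, Benjamini-Hochberg) and by DESeq2. Plxnd1 and Plxna4, at log2 fold changes of 0.60 ± 0.32 and 0.87 ± 0.56 (SE), passed with the block (edgeR adjusted p = 0.00408 and 0.00652, Benjamini-Hochberg). Nrp2, Plxnb1 and Plxnb2 were abundant and had log2 fold changes of 0.12, 0.02 and -0.05. Plxnb3 had at most 12 reads in a library and was not compared.

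Of 19 semaphorins compared, 0 passed edgeR's quasi-likelihood test and 0 passed by DESeq2. At an unadjusted p under 0.05 there was 1, with no share of all genes given beside it. The log2 fold changes of the 19 ran from -0.41 for Sema6c to 0.89 for Sema6d. The levels were led by the membrane-bound class 4 genes. Sema4b stood at 23.3 ± 2.96 RPKM in the LINE1 ASO arm and 19.9 ± 2.09 RPKM in the RC ASO arm (SD, n = 3 each), and Sema4d, a ligand of plexin B1, at 13.6 ± 0.55 and 11.8 ± 0.487 RPKM in the LINE1 ASO and RC ASO arms (SD, n = 3 each). Sema4b had 101.8, 80.2 and 99.6 CPM in LINE1 ASO replicates 1, 2 and 3, against 83.0, 70.8 and 86.9 CPM in RC ASO replicates 1, 2 and 3. These overlapped, with replicate 2 low in both arms, and the log2 fold change was 0.23 ± 0.12 (SE). Sema4d was 64.5, 62.0 and 67.2 CPM in LINE1 ASO replicates 1, 2 and 3, against 55.0, 58.7 and 54.5 CPM in RC ASO replicates 1, 2 and 3. Those libraries did not overlap, but the log2 fold change of 0.20 ± 0.07 (SE) did not pass (edgeR adjusted p = 0.152, Benjamini-Hochberg). With the block 5 semaphorins were higher (Sema3e, Sema4b, Sema4d, Sema4f and Sema6b) and 1, Sema6c, was lower. These are 26.3% and 5.26% of the 19, beside 17.6% and 16.1% of all genes. Sema3a had 5 to 17 reads a library and was not compared.

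Ephrins and Eph receptors gave 0 calls among 8 and 11 genes by edgeR's quasi-likelihood test. At an unadjusted p under 0.05 there were 0 ephrins and 3 Eph receptors, 2 of them higher. DESeq2 called 1 higher, Epha10, beside 6.37% of all genes. The share of all genes at that unadjusted p is not given here, so nothing is read from the unadjusted counts. Epha2 had the highest level per length of the whole family, at 48.7 ± 8.57 RPKM in the LINE1 ASO arm and 43.5 ± 8.93 RPKM in the RC ASO arm (SD, n = 3 each). It had 218, 153 and 200.4 CPM in LINE1 ASO replicates 1, 2 and 3, against 204, 134 and 172 CPM in RC ASO replicates 1, 2 and 3. Replicate 2 was low in both arms and the arms overlapped. Its fitted log2 fold change was 0.16 ± 0.18 (SE), and the block brought it past the threshold (edgeR adjusted p = 0.0132, Benjamini-Hochberg). Epha10 stood at 3.27, 2.87 and 3.23 CPM in LINE1 ASO replicates 1, 2 and 3, against 0.833, 2.14 and 1.61 CPM in RC ASO replicates 1, 2 and 3. These ranges lay apart, and the log2 fold change of 1.00 ± 0.30 (SE) missed the threshold (edgeR adjusted p = 0.101, Benjamini-Hochberg). Epha4, which binds both ephrin classes, stood lower in all LINE1 ASO libraries, at 74.1, 82.8 and 88.2 CPM, against 94.2, 90.6 and 110.9 CPM in the RC ASO libraries. The log2 fold change of -0.27 ± 0.10 (SE) did not pass (edgeR adjusted p = 0.176, Benjamini-Hochberg), but with the block it and Epha1 were lower. Among the ephrins, the ligands of these receptors, Efna4 had the highest RC ASO mean per length (its range there overlapped that of Efnb2), at 11.9, 10.1 and 11.0 CPM in LINE1 ASO replicates 1, 2 and 3, against 10.6, 9.73 and 8.50 CPM in RC ASO replicates 1, 2 and 3, with overlap. It gave a log2 fold change of 0.20 ± 0.14 (SE). Efnb2, the transmembrane ephrin known from arterial vessels, stood at 38.8, 25.7 and 29.6 CPM in LINE1 ASO replicates 1, 2 and 3, against 29.1, 18.5 and 21.7 CPM in RC ASO replicates 1, 2 and 3. The arms overlapped, yet within numbers 1, 2 and 3 the log2 ratios were 0.42, 0.47 and 0.45, and with the block it passed (edgeR adjusted p = 0.00054, Benjamini-Hochberg). Epha3, Epha5 and Epha6 had too few reads to be compared. Epha3 had 23, 11 and 2 reads in LINE1 ASO replicates 1, 2 and 3, against 1, 1 and 3 in RC ASO replicates 1, 2 and 3.

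Fold changes were larger among scarce genes, in the family as over all genes. The filter on low counts admits scarce genes through 1 arm alone, and its part in this was not tested. Of the 8 with under 1 CPM in the RC ASO arm the median log2 fold change was 0.84, and of the 7 with 64 CPM or more it was 0.09. The 8 include the 5 that met the filter in the LINE1 ASO arm alone and could enter only by being higher there. Sema3d, Unc5c and Unc5d, the rest of the 8, had log2 fold changes of 0.23, 0.13 and 0.60. The median of 0.84 is therefore no measure of scarce guidance genes in general. Over all genes tested the same bins gave 0.46 and -0.08, and 15.8% and 1.35% were called higher. Dcc lies in the lowest bin, Robo3 and Slit1 in that of 1 to 4 CPM, Neo1 and Robo1 in that of 16 to 64 CPM, and Plxna1 and Ntn1 in the highest. The called genes also differed in length: in GENCODE M21 (GRCm38) Dcc spans 1097 kb, Robo1 738 kb and Robo3 17.6 kb. The 6 called higher had a median span of 152.6 kb and the 56 not called one of 38.3 kb, beside 25.6 kb for all genes called higher and 23.9 kb for all tested. The 13 neighbours compared beside the 7 called genes did not pass the edgeR test. Of the 50-base words in the exons, the share also found in other genes was 0 for Neo1, Ntn1, Robo3 and Slit1 and at most 0.146% for Dcc and Robo1, and 7.06% for Plxna1.

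**Figure D4:**
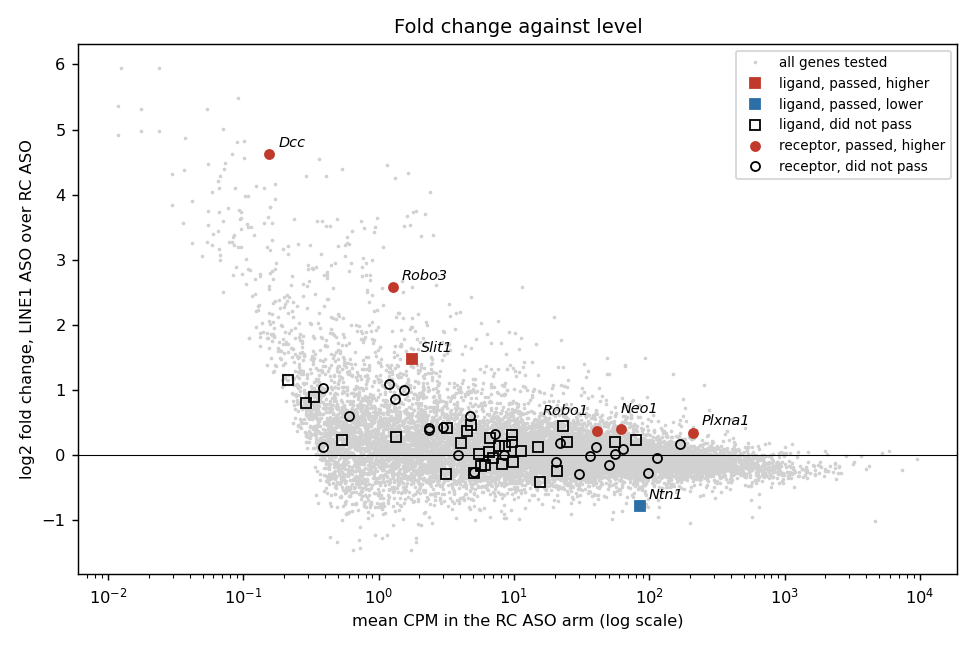
Log2 fold change, LINE1 ASO over RC ASO, against the mean CPM in the RC ASO arm (log axis) for all genes tested (grey) and the 63 guidance genes (coloured by call). Dcc (4.62), Robo3 (2.58) and Slit1 (1.48) lie at low level, while Ntn1 (-0.79), Plxna1 (0.34), Neo1 (0.40) and Robo1 (0.36) lie at higher level. 1 gene with 0 reads in the RC ASO arm is not drawn.

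Of a list of 61 further guidance pathway genes (other cues and receptors, adhesion molecules, adaptors and cytoskeletal regulators), 58 were compared. By edgeR's quasi-likelihood test 4 were higher and 1 lower, which are 6.90% and 1.72%, beside 4.93% and 1.17% of all genes. DESeq2 called 6 higher and 2 lower, beside 6.37% and 3.56% of all genes. The median log2 fold change was 0.10, beside 0.01 over all genes, and nothing particular to the list is read from these counts. Nrcam, an adhesion molecule of axons, stood at 12.4, 5.87 and 7.93 CPM in LINE1 ASO replicates 1, 2 and 3, against 1.82, 2.63 and 1.39 CPM in RC ASO replicates 1, 2 and 3. The rise was 2.16 ± 0.34 on the log2 scale (SE, edgeR adjusted p = 0.0153, Benjamini-Hochberg), and the arms lay apart. Srgap2, a GTPase activating protein of the group named for Slit and Robo, stood at 181, 155 and 156 CPM in LINE1 ASO replicates 1, 2 and 3, against 100.01, 118 and 102 CPM in RC ASO replicates 1, 2 and 3. For Srgap2 this was a log2 difference of 0.62 ± 0.10 (SE, edgeR adjusted p = 0.0142, Benjamini-Hochberg). Trio is a guanine nucleotide exchange factor that acts in netrin signalling through Dcc, and Pak3 is a kinase activated by Rac and Cdc42. Trio had 61.9, 52.4 and 49.6 CPM in LINE1 ASO replicates 1, 2 and 3, against 35.4, 35.1 and 37.2 CPM in RC ASO replicates 1, 2 and 3. Pak3 had 6.66, 4.29 and 4.74 CPM in LINE1 ASO replicates 1, 2 and 3, against 2.40, 2.82 and 2.82 CPM in RC ASO replicates 1, 2 and 3. Neither gene's arms overlapped, and the genes stood 0.61 ± 0.10 and 0.96 ± 0.21 (SE) higher on the log2 scale. Both passed (edgeR adjusted p = 0.0168 and 0.0438, Benjamini-Hochberg). Vasp, which promotes actin filament growth, was lower, at 154, 167 and 168 CPM in LINE1 ASO replicates 1, 2 and 3, against 196, 198 and 199 CPM in RC ASO replicates 1, 2 and 3. This log2 difference was -0.28 ± 0.06 (SE, edgeR adjusted p = 0.0485, Benjamini-Hochberg), and with library totals in place of TMM factors it did not pass (edgeR adjusted p = 0.120, Benjamini-Hochberg). Each of the 5 lost its call without RC ASO replicate 1 and without RC ASO replicate 3, and with the block 16 of the list were higher and 12 lower (27.6% and 20.7%), beside 17.6% and 16.1% of all genes.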

How the data were processed

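mRNA libraries were made with a directional kit from 1 ug of DNase-treated RNA per sample, per the labels' protocols. The deposited values are raw read counts per gene and per repeat; the submitters' processing notes name TopHat2 2.0.9, HTSeq 0.6.1p1, R 3.3.0, DESeq2 1.12.3 and mm9. The strand setting, the gene annotation and the handling of reads with several matches were not stated in those sources.

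The 3 LINE1 ASO libraries were compared with the 3 RC ASO libraries in edgeR 4.0.16 (R 4.3.3, limma 3.58.1) by a robust quasi-likelihood fit of all genes kept by filterByExpr (minimum count 10, minimum total 15), with TMM factors and Benjamini-Hochberg adjustment over 14725 genes at 0.05. The SE is the log2 fold change over the square root of F. CPM values use TMM-scaled totals of the kept genes, and RPKM divides these by kilobases of exon in GENCODE M21 (GRCm38), whose symbols matched all 70 genes. Log2 ratios within a replicate number add 0.1 CPM. The steps were tested on simulated data. Among the 7 called guidance genes the SE was largest for Dcc and Robo3 (0.62 and 0.31). The parts of read depth and of the spread between libraries in the SE were not tested. Some genes not called had a larger SE than Robo3, such as Plxna4 (0.56) and Ntn4 (0.53).

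The replicate numbers were taken to pair the libraries, since deviations from the arm means showed correlations of 0.436, 0.659 and 0.394 for same-numbered libraries. LINE1 ASO replicate 1 with RC ASO replicate 3 gave 0.220, and LINE1 ASO replicate 3 with RC ASO replicate 1 gave 0.120. Pairs of number 2 with another number gave -0.475 to -0.362. Deviations sum to 0 within an arm, so these values are linked, and a pairing of numbers 1 and 3 is less clear. The fit with the number as a block, other factors and filters, DESeq2 1.42.0, a 2-fold minimum and fits without 1 library or without both libraries numbered 2 were the alternatives. Members, gene lists, tests and alternatives were chosen with earlier results of these data known. Every guidance gene could be named. Dcc and Ntn1, the called genes and the most abundant gene of each class (per length, RC ASO arm) are given in full, with up to 4 called pathway genes in each direction.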

Additional observations from a re-analysis of the deposited data

How the results depend on the processing

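With the replicate block 20 guidance genes were higher and 4 lower, 15 higher without both libraries numbered 2, with a 2-fold minimum 3 higher and 0 lower, and with 1 library left out 1 to 9 higher and 0 to 1 lower. Among the pathway genes the block gave 16 higher and 12 lower, the fit without both libraries numbered 2 gave 9 and 5 of 58 (beside 17.6% and 16.1%, and 12.2% and 8.3%, of all genes), and a 2-fold minimum 1 and 0. Library totals gave 0 pathway genes lower, DESeq2 2 lower, and leaving out 1 library 0 to 7 higher and 0 to 2 lower. The log2 ratio of the L1Md repeats ran from -0.542 to 0.147 with 1 library left out, and was above 0 without LINE1 ASO replicate 2 alone. Over 17 named genes and 13 settings, 173 of 221 values kept direction and side of the threshold, 39 lost the call, 3 gained one and 6 turned sign. The 6 were Epha2 (-0.00532 without RC ASO replicate 2, in a range up to 0.296), Slit3 (0.113, 0.0221 and 0.193 without LINE1 ASO replicate 1, LINE1 ASO replicate 3 and RC ASO replicate 2, in a range down to -0.587) and Unc5b (-0.0139 and -0.0172 without LINE1 ASO replicate 2 and RC ASO replicate 3, up to 0.153 with 1 library left out and 0.168 with library totals), none of them called. Fits without a library have fewer samples; otherwise the cause was not tested. The replicate block ended no call of the 7 guidance genes. Library totals put the all-gene median log2 difference at 0.09, against 0.01 with TMM factors. The RC ASO level of Dcc rests on 3 to 4 reads a library.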
